A study of Mus musculus with 12 samples.

Results

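The cytotoxic granule genes described here are 10 mouse genes, taken by symbol out of the 35855 genes measured: 7 granzymes (Gzma, Gzmb, Gzmk, Gzmc, Gzmd, Gzme and Gzmf), perforin (Prf1), the granule proteoglycan serglycin (Srgn) and the granule membrane protein Nkg7. For each of them the deposited estimated counts and TPM values (a level scaled for transcript length and library total) were summed over its annotated transcripts in all 12 libraries. No measured value entered the choice of genes, which was made by name with earlier results of these data known.

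The libraries are poly(A)-primed cDNA of CD8 T cells sorted from mouse spleen, 3 libraries in each of 4 groups. WT donors and TCF-1 cKO donors both had the C57BL/6 background, and the TCF-1 cKO donors carried floxed alleles of Tcf7, the gene of the transcription factor TCF-1, with a Cre driven by Cd4. Cd4-driven Cre acts in all T cells from the stage at which thymocytes express both coreceptors, so the deletion was not limited to CD8 T cells and was in place before the cells matured. The WT pre and TCF-1 cKO pre groups are donor cells taken before transplant. The WT post and TCF-1 cKO post groups are H2Kb-positive donor cells sorted back at day 7 from the spleen of lethally irradiated BALB/c hosts. The hosts had received T cells of either genotype with WT T-cell-depleted bone marrow. The study's methods name CD3 T cells as those given, while a figure legend describes sorted CD8 T cells. Donors and hosts were female. Donor age was not given in the sources used here beyond age matching. The question put to these genes was whether the transcripts of the killing machinery differ between the genotypes, and whether they change when donor cells respond to host tissue.

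Cytotoxic T cells and NK cells kill by releasing secretory lysosomes onto a target cell. Perforin, a pore-forming protein, lets granzymes enter the target, and granzymes, a family of serine proteases, then cleave intracellular proteins. Serglycin holds granzymes and perforin in the granule by its charged sugar chains, and Nkg7 is a small membrane protein of the granule that is needed for normal release. Gzmb cuts after aspartate and activates caspases, Gzma is a trypsin-like protease, and Gzmk is a trypsin-like relative of Gzma. Resting naive CD8 T cells carry little granzyme mRNA, and activation raises it. In T cells Gzmc, Gzmd, Gzme and Gzmf are known mainly from strongly or repeatedly stimulated cells.

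Gzma (chr13:113093825-113100981) and Gzmk (chr13:113171608-113225908) are neighbours on the minus strand of chromosome 13 in the GRCm38 build. Gzmb (chr14:56258838-56262260), Gzmc (chr14:56231441-56234656), Gzmf (chr14:56205263-56211417), Gzmd (chr14:56129556-56132608) and Gzme (chr14:56117626-56120625) share 1 cluster on the minus strand of chromosome 14 with Gzmg and Gzmn. Prf1 (chr10:61297833-61304680) and Srgn (chr10:62493833-62527451) lie on chromosome 10, and Nkg7 (chr7:43437073-43438249) lies on chromosome 7. The cluster genes are near copies, which bears on how reads can be divided among them. The first 90 coding bases of the 5 cluster members, from the GENCODE M21 transcripts, show this, with capitals where a base differs from that of Gzmd.
Gzmd: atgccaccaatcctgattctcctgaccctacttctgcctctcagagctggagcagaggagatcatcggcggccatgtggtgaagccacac
Gzme: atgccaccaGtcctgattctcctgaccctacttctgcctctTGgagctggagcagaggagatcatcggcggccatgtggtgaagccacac
Gzmf: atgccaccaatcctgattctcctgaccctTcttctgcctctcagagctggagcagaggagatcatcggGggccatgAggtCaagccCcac
Gzmc: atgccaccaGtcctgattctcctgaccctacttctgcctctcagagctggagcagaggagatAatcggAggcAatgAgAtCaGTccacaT
Gzmb: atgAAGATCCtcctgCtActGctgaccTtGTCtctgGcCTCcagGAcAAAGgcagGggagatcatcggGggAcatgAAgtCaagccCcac
Over these 90 bases Gzme differed from Gzmd at 3 positions, Gzmf at 5, Gzmc at 10 and Gzmb at 31. Over the whole coding sequence Gzmd and Gzme were 93.3% identical, whereas Gzmb was 63.9% identical to Gzmd and 75.3% identical to Gzmc. Of all 31-base words in its transcripts, 61.8% were found in no other gene for Gzmd, 57.9% for Gzme, 77.2% for Gzmf and 85.2% for Gzmc. The share was 98.7% for Gzmb and 100% for Gzma, Gzmk and Nkg7. The counts of Gzmd, Gzme and Gzmf, and to a lesser extent those of Gzmc, are therefore uncertain as to the gene they belong to.

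Library totals ranged from 4520270 to 9577076 estimated counts in TCF-1 cKO pre libraries and from 18184814 to 32657005 in the others. The markers of other cell types went against the label of the pre-transplant libraries. The summed TPM of 5 CD8 T cell markers was 931 to 979 in WT pre and 412 to 452 in TCF-1 cKO pre, below that of 5 B cell markers (3963 to 4360 and 2786 to 4041) and of 6 myeloid markers (2574 to 4695 and 1899 to 4387). Summed over 7 NK cell markers it was 1417 to 1790 in WT pre and 921 to 1846 in TCF-1 cKO pre, against 57.0 to 107 in WT post and 33.5 to 74.7 in TCF-1 cKO post. Before transplant most of this sum was Tyrobp (920 to 1202 TPM in WT pre, 566 to 1292 in TCF-1 cKO pre) and Fcer1g (324 to 481 and 256 to 504). The other NK cell markers were then each at 59.2 TPM or less, so the sum is no measure of NK cell content. Within that list Ncr1, the defining NK receptor, was at 9.96 to 46.5 TPM in WT pre, 18.2 to 59.2 in TCF-1 cKO pre, 0.866 to 2.31 in WT post and 3.59 to 5.56 in TCF-1 cKO post. After transplant the CD8 T cell markers summed to 2121 to 2343 TPM in WT post and 2796 to 3436 in TCF-1 cKO post. The B cell markers summed to 19.7 to 35.6 and 14.3 to 20.2, and the CD4 T cell markers to 5.31 to 8.76 and 0.987 to 3.32. NK cells express Gzma, Gzmb, Prf1, Srgn and Nkg7, and mast and other myeloid cells express Srgn, so in the comparisons of stages a change per CD8 T cell and a change in the cells sorted cannot be told apart. Tcf7, the targeted gene, was at 49.7 to 87.1 TPM in WT pre and 22.1 to 38.6 in TCF-1 cKO pre. After transplant it was at 2.79 to 2.97 TPM in TCF-1 cKO libraries, at 6.55 and 4.69 in WT replicates 1 and 2, and at 2.23 in the library labelled WT replicate 3, below all 3 TCF-1 cKO libraries. The edgeR test found no difference in Tcf7 past the FDR of 0.1 at either stage (adjusted p = 0.223 pre-transplant, 0.308 post-transplant). The log2 fold changes were -1.355 ± 0.46 (SE) pre-transplant and -0.91 ± 0.55 post-transplant. The paper reports loss of TCF-1 protein in CD8 T cells of these mice, measured by flow cytometry. TCF-1 cKO post replicate 2 is titled as CD8 T cells while another of its labels names CD4 T cells, and its Cd4 level was 0.453 TPM against 151 TPM of Cd8a.

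**Figure D1:**
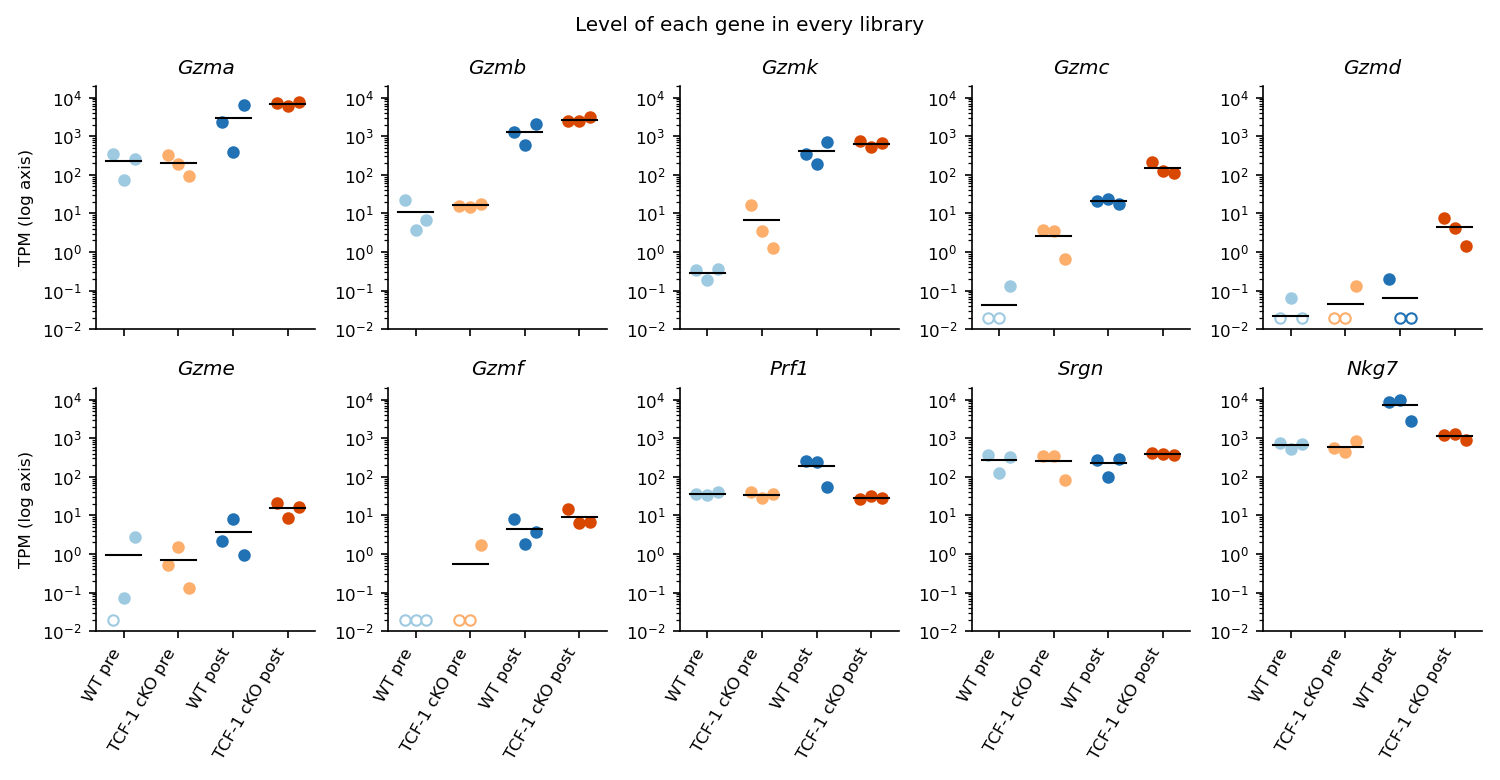
TPM (log axis) of the 10 genes in each library, with 3 points per group for replicates 1 to 3 from left to right and a bar at the group mean. Open points on the lower edge are libraries at 0 TPM. The granzymes stand higher in post-transplant than in pre-transplant libraries of TCF-1 cKO mice, and Prf1 and Nkg7 are highest in WT replicates 1 and 2 post-transplant.

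Levels were ranked per group by mean TPM, which is scaled for transcript length but not for GC content. The libraries differed in GC content, as given below, and its part in the order of genes was not tested. Before transplant the order was the same at its top in both genotypes: Nkg7 (649 ± 120 TPM in WT pre, SD, n = 3), Srgn (272 ± 130), Gzma (225 ± 139), Prf1 (36.4 ± 3.38) and Gzmb (10.7 ± 9.60). The ranges of Srgn and Gzma overlapped, and the other neighbours among these 5 did not in WT pre. In WT post libraries Nkg7 (7144 ± 3864 TPM) stood above Gzma (3004 ± 2994), Gzmb (1296 ± 740), Gzmk (422 ± 278), Srgn (222 ± 109.5) and Prf1 (186 ± 113), and each of these overlapped its neighbour. In TCF-1 cKO post libraries the order was Gzma (7037 ± 945 TPM), Gzmb (2658 ± 416), Nkg7 (1123 ± 216), Gzmk (641 ± 109), Srgn (394 ± 22.3), Gzmc (152 ± 59.7) and Prf1 (28.6 ± 2.66), with no overlap between neighbours. Gzme (15.6 ± 6.27), Gzmf (9.19 ± 4.35) and Gzmd (4.43 ± 3.09) came last there and overlapped.

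Post-transplant WT cells were compared with WT cells before transplant to see how the genes change over 7 days in the host. Most granzyme transcripts rose by more than an order of magnitude, and Prf1 and Nkg7 rose with them, while Srgn did not pass the test. With p-values from the quasi-likelihood test of edgeR, adjusted over all genes by the Benjamini-Hochberg method, 7 of the 9 members tested rose and none fell. Over all 16790 genes, 20.0% were called and 9.7% were called as higher. The same 7 members had no overlap between groups in TMM-normalized CPM, against 15.9% of all genes tested in that direction. The median log2 fold change was 4.85 over the 9 members and -0.30 over all genes, and it was 4.85 with Gzmf at the bound given below.

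Gzma was at 349, 74.7 and 252 TPM in WT pre replicates 1 to 3 and at 2339.9, 397 and 6274 TPM in WT post. The lowest post-transplant library was close to the highest pre-transplant library, and the post-transplant values spread over more than an order of magnitude. The log2 fold change was 4.85 ± 0.95 (SE; edgeR adjusted p = 0.00894). Gzmb was at 21.6, 3.77 and 6.56 TPM before and at 1255, 577 and 2055 TPM after transplant, far apart in every library (log2 fold change 8.08 ± 0.90, edgeR adjusted p = 0.000873). Gzmk was at 0.334, 0.183 and 0.354 TPM before and at 354, 185 and 728 TPM after transplant. At 21 counts in all 3 pre-transplant libraries together it was close to the limit of detection, and its log2 fold change was the largest of these 3 genes (11.32 ± 0.84, edgeR adjusted p = 0.000319).

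Of the cluster genes, Gzmc was at 0, 0 and 0.130 TPM in WT pre and at 21.4, 23.0 and 18.0 TPM in WT post. Its 2 pre-transplant counts against 1277 gave a ratio of 589 per library total (95% exact interval 163 to 4865, counting error only; edgeR adjusted p = 0.00115). Gzmf had no counts in WT pre and was at 8.15, 1.79 and 3.72 TPM in WT post, which is at least 28.9-fold above the level of 3 counts per library (edgeR adjusted p = 0.00521). Gzme was at 0, 0.0701 and 2.80 TPM before and at 2.18, 8.26 and 0.949 TPM after transplant, so that the groups overlapped (log2 fold change 3.21 ± 1.67, edgeR adjusted p = 0.241). Without WT pre replicate 3, its highest pre-transplant library, Gzme passed the FDR (7.86 ± 1.87, edgeR adjusted p = 0.0523). Gzmd had 1 count in WT pre and 5 in WT post and was not tested.

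Prf1 was at 35.9, 33.2 and 39.9 TPM in WT pre and at 256, 246 and 55.5 TPM in WT post. All 3 post-transplant libraries were higher, but the library labelled WT replicate 3 only slightly so (log2 fold change 3.63 ± 0.67, edgeR adjusted p = 0.00681). Nkg7 was at 743, 513 and 691 TPM before and at 8748, 9947 and 2737 TPM after transplant, with the library labelled WT replicate 3 again the lowest (log2 fold change 4.72 ± 0.61, edgeR adjusted p = 0.00168). Srgn was at 366, 124 and 327 TPM before and at 274, 96.7 and 297 TPM after transplant, with overlapping groups (log2 fold change 0.88 ± 0.59, edgeR adjusted p = 0.374).

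In TCF-1 cKO cells the same comparison of stages raised all 10 members, including Gzmd, Gzme and Srgn. The count was 10 of 10 members tested by edgeR's quasi-likelihood test, against 36.5% of 18535 genes called and 19.7% called as higher, and all 10 had no overlap in TMM-normalized CPM (22.8% of genes in that direction). The median log2 fold change was 6.88 over the members and -0.29 over all genes. Both comparisons of stages depend on the scaling. With library totals in place of TMM factors the median over all genes moved to -1.25 in WT and -1.89 in TCF-1 cKO, and with it Srgn in WT came to 0.03 and Prf1 in TCF-1 cKO to 0.11 (edgeR adjusted p = 0.972 and 0.804).

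Gzma rose from 324, 190.0 and 92.8 TPM in TCF-1 cKO pre to 7189, 6026 and 7897 TPM in TCF-1 cKO post, without overlap (log2 fold change 7.16 ± 0.52, edgeR adjusted p = 0.000105). Gzmb rose from 15.9, 14.9 and 17.2 TPM to 2428, 2408 and 3139 TPM, with little spread in either group (log2 fold change 9.28 ± 0.51, edgeR adjusted p = 0.000105). Gzmk rose from 16.1, 3.43 and 1.25 TPM to 740.0, 525 and 658 TPM (log2 fold change 8.62 ± 0.95, edgeR adjusted p = 0.000246). The pre-transplant values of Gzmk spread over an order of magnitude and rested on 97 counts in all.

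Gzmc rose from 3.81, 3.41 and 0.675 TPM to 220.0, 126 and 109 TPM (log2 fold change 7.97 ± 0.67, edgeR adjusted p = 0.00011). Gzmd was at 0, 0 and 0.132 TPM before and at 7.63, 4.20 and 1.46 TPM after transplant, and its 263 counts against 1 gave a ratio of 82.7 per library total (95% exact interval 14.7 to 3278; edgeR adjusted p = 0.0014). Gzme rose from 0.526, 1.50 and 0.131 TPM to 21.2, 8.79 and 16.8 TPM (edgeR log2 fold change 6.60 ± 0.81). Gzmf was at 0, 0 and 1.69 TPM before and at 14.2, 6.49 and 6.87 TPM after transplant (edgeR log2 fold change 5.40 ± 1.20). These cluster genes were thus seen in every TCF-1 cKO post library, at levels well under those of Gzma and Gzmb.

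For the members outside the granzyme family the unit decided the size of the change in TCF-1 cKO cells. Prf1 was at 39.9, 28.6 and 35.6 TPM before and at 26.2, 31.5 and 28.2 TPM after transplant, so that its TPM groups overlapped and the later mean was the lower one. On the TMM scale it was called as higher (log2 fold change 1.68 ± 0.36, edgeR adjusted p = 0.0075). Srgn was at 341, 348 and 84.9 TPM before and at 417, 392 and 373 TPM after transplant (log2 fold change 2.65 ± 0.45, edgeR adjusted p = 0.00222). Nkg7 was at 550.0, 431 and 825 TPM before and at 1209, 1284 and 877 TPM after transplant (log2 fold change 2.72 ± 0.49, edgeR adjusted p = 0.00304). The highest Nkg7 level before transplant was close to the lowest level after it.

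Since the pre-transplant libraries held transcripts of other cell types, each member's TPM was also divided by the summed TPM of Cd8a and Cd8b1 in the same library, a scaling added after the data were seen. Per CD8 transcript Gzmb was at 0.0107 to 0.0596 in WT pre and 0.653 to 3.00 in WT post, and at 0.0759 to 0.0916 in TCF-1 cKO pre and 3.20 to 6.53 in TCF-1 cKO post. Gzmb and Gzmk thus stood higher after transplant in both genotypes without overlap, and the ratio of means was 57.2 for Gzmb in WT and 51.1 in TCF-1 cKO. Gzma overlapped between the stages in WT on this scale and did not in TCF-1 cKO. Prf1 per CD8 transcript was at 0.146 to 0.219 in TCF-1 cKO pre and 0.0346 to 0.0588 in TCF-1 cKO post, the opposite direction to the edgeR call, and Nkg7 was lower too, between 2.19 and 4.39 before and between 1.60 and 1.83 after transplant. In WT, Nkg7 per CD8 transcript lay between 1.45 and 2.05 before and between 3.99 and 11.2 after transplant, and Prf1 overlapped. Cd8a and Cd8b1 TPM were themselves higher after transplant in both genotypes, so a gene with unchanged TPM falls on this scale.

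**Figure D2:**
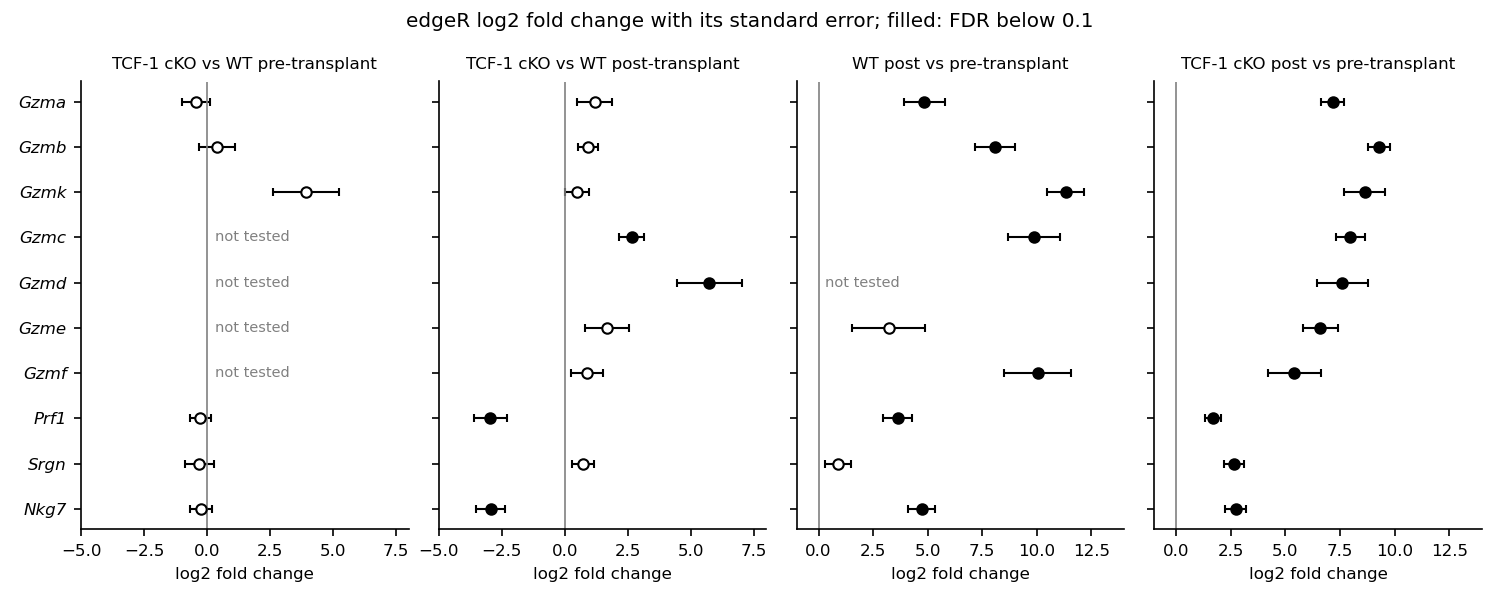
edgeR log2 fold change (x axis, log2 units) of each gene in the 4 comparisons, with standard error bars and filled points where the FDR was below 0.1. TCF-1 cKO against WT post-transplant shows Gzmc and Gzmd to the right of 0 and Prf1 and Nkg7 to the left, and both comparisons of stages lie to the right of 0.

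At day 7 post-transplant TCF-1 cKO donor cells were compared with WT donor cells. Gzmc and Gzmd were higher and Prf1 and Nkg7 were lower in TCF-1 cKO cells, while Gzma, Gzmb, Gzmk, Gzme, Gzmf and Srgn did not pass the test. With the same edgeR test 4 of 10 members were called, 2 in each direction, against 17.9% of 16026 genes called (2.51% higher and 15.4% lower). In TMM-normalized CPM 4 members lay above WT and 2 below without overlap, against 23.6% and 17.3% of all genes. An exact permutation test of 3 against 3 libraries cannot go below p = 0.1. Groups without overlap always reach that value, so for these 6 it restates the lack of overlap. In CPM of library totals 9 members did not overlap, with Gzma, Gzme and Gzmf higher in TCF-1 cKO as well. The share of all genes without overlap on that scale was not computed. The median log2 fold change was 0.89 over the members and 0.15 over all genes. The 5 CD8 T cell markers summed to 2121 to 2343 TPM in WT post and 2796 to 3436 in TCF-1 cKO post, without overlap. Of these markers Cd3d and Cd3g were higher in TCF-1 cKO post, Cd3e was lower, and Cd8a and Cd8b1 overlapped. Some markers of other cells also differed between these groups without overlap. The 3 CD4 T cell markers summed to 5.31 to 8.76 TPM in WT post and 0.987 to 3.32 in TCF-1 cKO post. The 6 myeloid markers summed to 144 to 233 TPM in WT post and 248.8 to 919.9 in TCF-1 cKO post. Among them S100a8, S100a9 and Lyz2 were higher in TCF-1 cKO post without overlap. Csf1r was lower there without overlap (1.866 to 2.025 TPM against 2.474 to 4.325 in WT post), and Cd68 and Itgam overlapped. The 6 mast cell markers summed to 0.208 to 2.48 in WT post and 3.21 to 5.22 in TCF-1 cKO post. Ncr1 was higher in TCF-1 cKO post while the 7 NK cell markers together overlapped. The part of other cells in the members' differences was not tested.

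Prf1 stood at 256, 246 and 55.5 TPM in WT post and at 26.2, 31.5 and 28.2 TPM in TCF-1 cKO post, a log2 fold change of -2.96 ± 0.67 (SE; edgeR adjusted p = 0.0448). Nkg7 stood at 8748, 9947 and 2737 TPM against 1209, 1284 and 877 TPM, a log2 fold change of -2.95 ± 0.58 with the same adjusted p from edgeR (0.0448). For both genes the library labelled WT replicate 3 lay between the other WT libraries and the TCF-1 cKO libraries. Gzmc stood at 21.4, 23.0 and 18.0 TPM in WT post and at 220.0, 126 and 109 TPM in TCF-1 cKO post, and here the library labelled WT replicate 3 was level with the other WT libraries (log2 fold change 2.64 ± 0.49, edgeR adjusted p = 0.0448). Gzmd had 5, 0 and 0 counts in WT post and 145, 80 and 38 counts in TCF-1 cKO post, a pooled ratio of 67.5 per library total (95% exact interval 28.6 to 210 for counting error; edgeR adjusted p = 0.0448). Gzme, which shares the most sequence with Gzmd, was at 2.18, 8.26 and 0.949 TPM in WT post and at 21.2, 8.79 and 16.8 TPM in TCF-1 cKO post, with a log2 fold change of 1.68 ± 0.86 (edgeR adjusted p = 0.242).

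The abundant granzymes were less clearly separated. Gzmb was at 1255, 577 and 2055 TPM in WT post and at 2428, 2408 and 3139 TPM in TCF-1 cKO post, higher in each TCF-1 cKO library than in any WT library (log2 fold change 0.91 ± 0.41, edgeR adjusted p = 0.185). Gzma was at 2339.9, 397 and 6274 TPM against 7189, 6026 and 7897 TPM (log2 fold change 1.18 ± 0.71, edgeR adjusted p = 0.313), and Gzmk at 354, 185 and 728 TPM against 740.0, 525 and 658 TPM (0.49 ± 0.47, edgeR adjusted p = 0.521). The library labelled WT replicate 3 overlapped the TCF-1 cKO range for both. Gzmf had a log2 fold change of 0.86 ± 0.64 and Srgn of 0.71 ± 0.44 (edgeR adjusted p = 0.405 and 0.322). Without the library labelled WT replicate 3, 6 members were called, with Gzma at 2.13 ± 0.61 (edgeR adjusted p = 0.0438) and Gzmb at 1.23 ± 0.36 (edgeR adjusted p = 0.0466) among them, and 29.1% of all genes were called in that fit. Leaving out any 1 of the other 5 libraries, TCF-1 cKO replicate 2 included, left 0 members called, with 0 to 2 genes called over all, and the log2 fold changes of Prf1 then lay between -3.09 and -2.59.

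The genotype difference at day 7 varied with GC content over all genes, and the members differ in GC content. Genes were sorted by GC content into 10 equal bins, and from the first bin (median GC content 39.3%) to the last (58.7%) the median log2 fold change went from 0.65 to -2.59. Weighted by counts, mean GC content was 52.6% and 53.8% in WT post replicates 1 and 2, 50.3% in the library labelled WT replicate 3 and 48.3% to 49.5% in TCF-1 cKO post. Prf1 (53.9% GC) and Nkg7 (53.1%) lie on the side where genes were lower in TCF-1 cKO, and genes within 1 percentage point of their GC content had median log2 fold changes of -1.02 and -0.77. Gzma (44.6%), Gzmb (46.2%), Gzmk (47.3%) and Srgn (43.2%) lie on the other side, where the medians were 0.73, 0.62, 0.52 and 0.81, against 1.18, 0.91, 0.49 and 0.71 for the genes themselves. For Gzmc (50.1%) and Gzmd (51.0%) the medians were 0.10 and -0.12, against 2.64 and 5.73.

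After an offset that removed each library's trend on GC content and length, the same 4 members were called, against 3.51% of all genes. Their edgeR adjusted p then lay between 0.0976 and 0.0989, just inside the threshold, at log2 fold changes of -1.81 for Prf1, -2.57 for Nkg7, 2.15 for Gzmc and 5.58 for Gzmd. With the offset Gzmb fell to 0.25, Gzma to 0.32, Gzmk to -0.26 and Srgn to -0.41. With the offset and replicate number both in the fit, 0 members were called, against 0.0125% of all genes. Why the libraries differ in GC content was not tested.

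**Figure D3:**
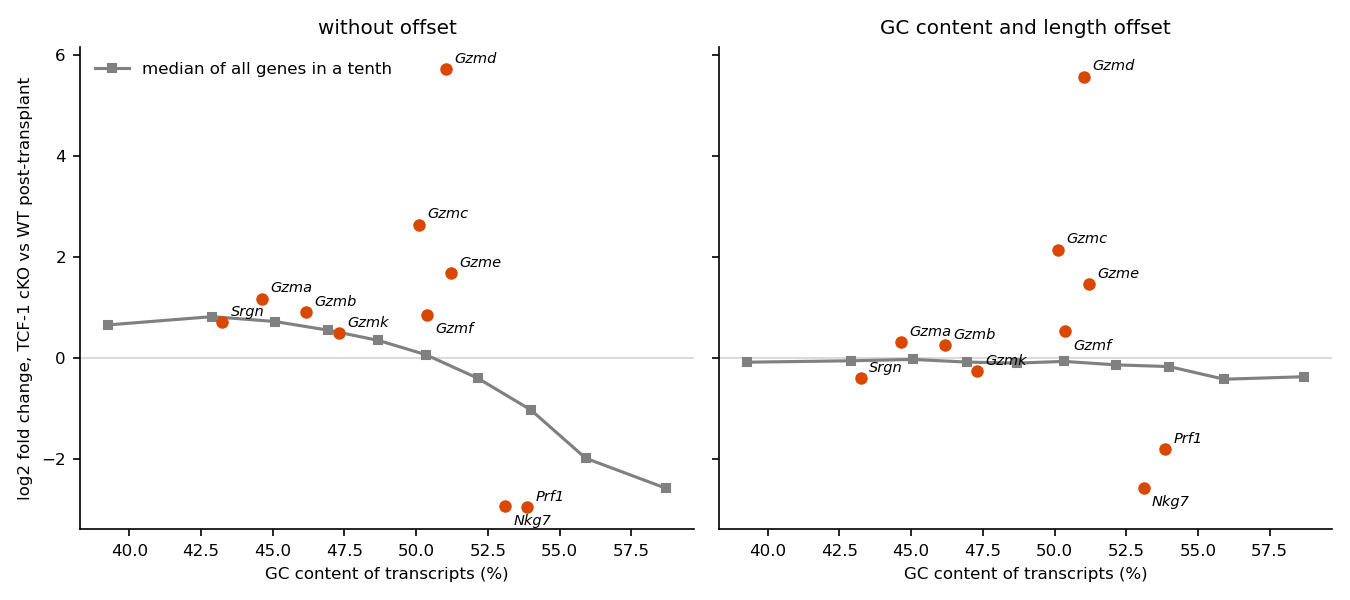
Log2 fold change of TCF-1 cKO against WT post-transplant (y axis) by GC content of the transcripts in percent (x axis), before and after correction by the offset. Orange points are the 10 genes and the grey line joins the medians of all genes in 10 bins by GC content. Prf1 and Nkg7 lie below the line, and Gzmc and Gzmd above it, on both sides.

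Before transplant the genotypes were compared to see whether the difference was already present in the donor cells. No member passed the test, and 4 cluster granzymes were too low to be tested. The count was 0 of 6 members tested by edgeR's quasi-likelihood test, against 0.0373% of 18757 genes called. At an unadjusted p below 0.05 edgeR counted 1 of 6 members (17.7% of all genes), and limma-voom called 0, limma-voom with sample quality weights 1 and DESeq2 1 past the FDR, where these 3 tools called 0.0107%, 40.3% and 7.82% of all genes. The member with an unadjusted p below 0.05, and the one called by both other tools, was Gzmk, at 0.334, 0.183 and 0.354 TPM in WT pre and 16.1, 3.43 and 1.25 TPM in TCF-1 cKO pre, higher in each TCF-1 cKO library, as were 16.4% of all genes tested (log2 fold change 3.93 ± 1.31, edgeR adjusted p = 0.223). Without TCF-1 cKO pre replicate 1, which held 75 of its 97 TCF-1 cKO counts, the difference was 2.23 ± 1.84 (edgeR adjusted p = 0.653). Without TCF-1 cKO pre replicate 3, its lowest, Gzmk passed the FDR (4.26 ± 1.31, edgeR adjusted p = 0.0864), with 12.7% of all genes called in that fit. Gzmd (1 count in each genotype), Gzme (48 in WT pre and 8 in TCF-1 cKO pre) and Gzmf (0 and 13) were not tested and overlapped. Gzmc, not tested either, had 2 counts in WT pre against 30 in the much smaller TCF-1 cKO pre libraries, a ratio of 56.5 per library total (95% exact interval 14.3 to 488, counting error only).

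The other 5 members showed log2 fold changes between -0.43 and 0.39 before transplant with standard errors of 0.42 to 0.70, so changes of that size were not detectable at this depth and spread. Gzmb was at 21.6, 3.77 and 6.56 TPM in WT pre and 15.9, 14.9 and 17.2 TPM in TCF-1 cKO pre, and Prf1 at 35.9, 33.2 and 39.9 TPM against 39.9, 28.6 and 35.6 TPM. These ranges overlapped. Gzma (-0.43) and Gzmb (0.39) did not pass the test, nor did Prf1, Srgn and Nkg7, with log2 fold changes of -0.27, -0.30 and -0.24, and with library totals in place of TMM factors the last 3 turned to small positive values while the median of all genes moved from 0.05 to 0.39. NK, B and myeloid marker levels overlapped between the genotypes here, and the CD8 T cell markers were lower in TCF-1 cKO pre. Per Cd8a and Cd8b1 transcript, Gzmb (ratio of means 2.91), Gzmk (47.5), Gzmc (122), Prf1 (1.86) and Nkg7 (1.81) lay higher in TCF-1 cKO pre without overlap, where TPM of Gzmb, Prf1 and Nkg7 overlapped, and the other 5 members overlapped. The divisor itself was lower in TCF-1 cKO pre, with mean Cd8a at 20.9 TPM against 83.6 in WT pre and mean Cd8b1 at 168 against 282. A gene with equal TPM in both genotypes would thus also lie higher on this scale. The share of all genes that did so was not computed.

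Whether the genotype difference changed from pre- to post-transplant was put to an interaction test on the 12 libraries together. None of the 10 members passed the FDR by edgeR's quasi-likelihood test, against 0.00465% of 21526 genes called. At an unadjusted p below 0.05 edgeR counted 4 members (15.7% of all genes), and limma-voom called 0, limma-voom with sample quality weights 3 and DESeq2 3, where these tools called 0.00465%, 16.0% and 8.04% of all genes. Nkg7 had an interaction of -2.24 ± 0.79 on the log2 scale and Prf1 of -2.17 ± 0.74 (edgeR adjusted p = 0.249 and 0.244). Gzmk was at -2.96 ± 1.03 and Gzmf at -4.35 ± 1.75 (edgeR adjusted p = 0.246 and 0.278), and these 2 with Prf1 and Nkg7 made up the 4. Gzmf had 0 counts in WT pre and 13 in TCF-1 cKO pre, all in replicate 3. Gzmk had 21 in WT pre and 97 in TCF-1 cKO pre, 75 of them in replicate 1. The interactions of Gzmk and Gzmf thus rest on counts near the floor before transplant. Of the others, Gzma (2.03), Gzmb (0.94), Gzmd (5.27), Gzme (3.13) and Srgn (1.53) had positive interactions and Gzmc a negative one (-2.04). Without the library labelled WT replicate 3, Prf1 (-2.59), Nkg7 (-2.62) and Gzma (3.31) passed the FDR, as did 8.73% of all genes.

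Gzma took a smaller share of granzyme mRNA, and Gzmb and Gzmk larger shares, in every post-transplant library than in any pre-transplant library, described here without a test. Summed over 10 granzymes (the 7 members with Gzmg, Gzmn and Gzmm), granzyme transcripts made up 0.00866% to 0.0377% of all TPM in the pre-transplant libraries. They made up 0.404%, 0.127% and 0.911% in WT post replicates 1 to 3 and 0.912% to 1.18% in TCF-1 cKO post. Gzma was 86.3% to 93.0% of granzyme TPM in WT pre and 75.5% to 86.8% in TCF-1 cKO pre. After transplant it was 57.9%, 31.3% and 68.9% in WT and 66.1% to 67.7% in TCF-1 cKO, and Gzmb was 31.1%, 45.5% and 22.6% in WT and 22.9% to 26.5% in TCF-1 cKO. The ratio of Prf1 to Gzmb TPM was 1.66 to 8.80 in WT pre, 1.92 to 2.52 in TCF-1 cKO pre, 0.204, 0.426 and 0.0270 in WT post and 0.00900 to 0.0131 in TCF-1 cKO post. The 3 WT post libraries spread more widely than the 3 TCF-1 cKO post libraries in these shares. Among the post-transplant libraries the ratio of Prf1 to Gzmb fell in the same order as the count-weighted GC content. It went from 0.426 at 53.8% GC in WT replicate 2 to 0.00900 at 48.3% in TCF-1 cKO replicate 3. Prf1 (53.9% GC) and Gzmb (46.2%) differ in GC content, and the part of GC content in the ratio was not tested.

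**Figure D4:**
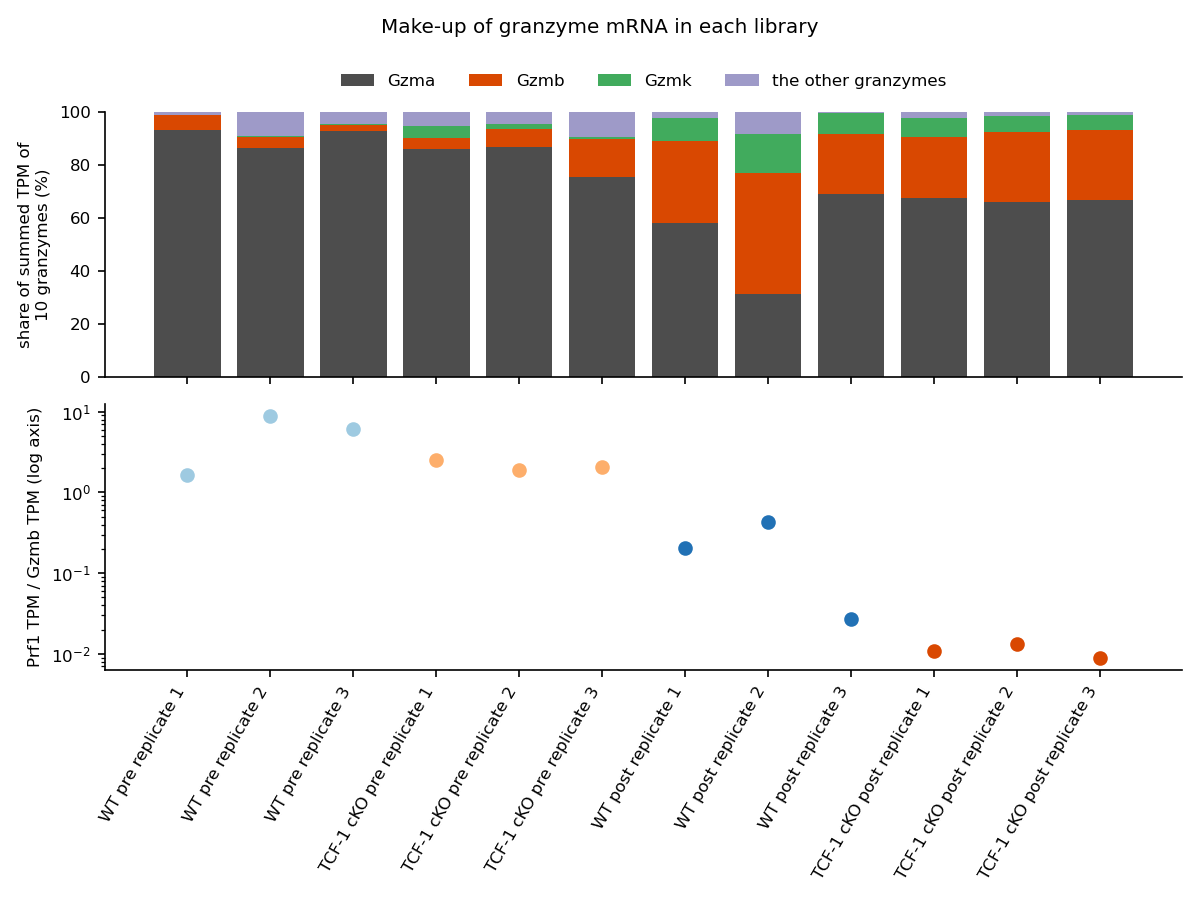
Share of the summed TPM of 10 granzymes taken by Gzma, Gzmb, Gzmk and the others in each library (upper panel, percent), and the ratio of Prf1 to Gzmb TPM (lower panel, log axis). Gzma takes most of the granzyme TPM in every pre-transplant library, and the ratio is lowest in TCF-1 cKO post, at 0.00900 to 0.0131. Post-transplant, the ratio falls in the same order as the GC content of the libraries.

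Most of the post-transplant level of each gene came from 1 coding transcript. Gzma-201 held 98.0% to 98.7% of Gzma TPM in WT post. For Prf1, transcript Prf1-202 held 80.6% to 88.3% of the TPM in WT post and 91.6% to 95.9% in TCF-1 cKO post, and the shorter Prf1-201 the rest. Of Gzmk, 19.5% to 23.8% of post-transplant TPM was assigned to Gzmk-203, which is annotated for nonsense-mediated decay. Nkg7-202, an intron-retaining form, held 0.396% to 3.77% of Nkg7 TPM after transplant.

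Upstream sequence was examined because the members moved together between stages and because TCF-1 binds DNA. In the background of the field, RUNX and T-box factors act at granzyme and perforin genes and TCF-1 recognizes the TCF/LEF motif. Windows of 250 bases before to 50 bases after each RefSeq start on GRCm38.p6 were searched on both strands, and all 10 members were found there with 11 windows, Srgn having 2. The 250 bases before the start are shown for 2 members that rose in both genotypes, Gzmb and Gzmk, and for both that were lower in TCF-1 cKO cells after transplant, Prf1 and Nkg7. Capitals mark the motifs TGTGGT (RUNX), AGGTGT (T-box), CTTTGA (TCF/LEF) and TGANTCA (AP-1) or their reverse complements.
Gzmb (chr14:56262335-56262584, minus strand): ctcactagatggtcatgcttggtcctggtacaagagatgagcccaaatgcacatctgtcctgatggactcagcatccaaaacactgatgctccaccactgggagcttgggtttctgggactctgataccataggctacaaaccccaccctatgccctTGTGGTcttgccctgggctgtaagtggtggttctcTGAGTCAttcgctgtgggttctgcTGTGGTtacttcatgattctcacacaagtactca
Gzmk (chr13:113180966-113181215, minus strand): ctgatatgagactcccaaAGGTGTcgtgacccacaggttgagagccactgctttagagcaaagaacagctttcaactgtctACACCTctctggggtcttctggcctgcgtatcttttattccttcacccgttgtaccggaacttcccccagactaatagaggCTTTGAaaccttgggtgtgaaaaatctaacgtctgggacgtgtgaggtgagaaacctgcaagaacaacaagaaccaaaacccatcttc
Prf1 (chr10:61297586-61297835, plus strand): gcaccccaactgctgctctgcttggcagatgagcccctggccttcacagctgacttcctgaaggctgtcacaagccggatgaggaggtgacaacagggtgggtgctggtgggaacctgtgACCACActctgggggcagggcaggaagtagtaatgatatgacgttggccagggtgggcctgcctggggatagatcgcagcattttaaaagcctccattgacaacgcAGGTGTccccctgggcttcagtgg
Nkg7 (chr7:43436888-43437137, plus strand): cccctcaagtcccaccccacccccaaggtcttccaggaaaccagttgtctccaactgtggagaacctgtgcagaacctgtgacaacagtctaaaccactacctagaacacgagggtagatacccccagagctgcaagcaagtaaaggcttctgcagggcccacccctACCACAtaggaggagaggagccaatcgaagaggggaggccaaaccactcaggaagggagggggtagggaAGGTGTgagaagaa
The RUNX letters occurred in the windows of 9 of 10 members, all but Gzmk, and in 16.8% of 32851 promoters. The T-box letters occurred for 6 members (Gzma, Gzmc, Gzme, Gzmk, Nkg7 and Prf1) against 13.7% of promoters. The TCF/LEF letters were in the window of Gzmk alone among the members, 88 bases before its start, against 16.0% of promoters. The AP-1 letters were in that of Gzmb alone, against 7.81% of promoters. A CRE motif (TGACGTCA, 1.79% of promoters) was found for Gzmc and Gzmf. The windows of the cluster genes are themselves near copies, so their matches are not separate observations, and a match of letters is no measure of binding.

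Other genes of the granule pathway were described from 4 lists holding 34 genes, 33 of them with transcripts in the files. In the comparison of genotypes post-transplant, 5 of 17 genes of granule trafficking and exocytosis fell below the FDR of 0.1 (edgeR) as lower in TCF-1 cKO cells and 0 as higher, against the 15.4% and 2.51% of all genes, with a median log2 fold change of -0.43. Vamp2, a vesicle SNARE protein, was at 11.8 ± 6.66 TPM (SD, n = 3) in WT post and 1.80 ± 0.832 in TCF-1 cKO post, Unc13d, the granule priming factor Munc13-4, at 144 ± 69.3 against 47.9 ± 1.83, and Stxbp2, the syntaxin partner Munc18-2, at 107 ± 40.9 against 18.7 ± 14.5. Their log2 fold changes were -3.15, -2.78 and -2.62 (edgeR adjusted p = 0.0459, 0.0475 and 0.0501). Their GC content was 55.6% to 56.2%, and with the GC and length correction 1 of the 17 genes was called, Stx11, named here after its values were seen.

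In the list of granzyme maturation and lysosomal sorting 2 of 8 genes were lower and 0 higher in TCF-1 cKO post, next to the same shares of all genes. These were Ctsw, a cathepsin of cytotoxic cells, at 860 ± 482 TPM in WT post and 132 ± 86.9 in TCF-1 cKO post, and Igf2r, a receptor that sorts lysosomal enzymes, at 2.01 ± 0.545 and 0.579 ± 0.0814. With the offset Igf2r was called and Ctsw was not (edgeR adjusted p = 0.0984 and 0.107). Of 3 other granzymes, Gzmm was tested and was lower in TCF-1 cKO post, at 8.64 ± 4.94 TPM against 54.6 ± 22.4 (log2 fold change -3.00 ± 0.66, edgeR adjusted p = 0.0448, and 0.107 with the offset). Gzmg and Gzmn were at 0 to 4 counts in each post-transplant library.

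Of 5 granzyme inhibitors and relatives, Serpinb1a was called as higher in TCF-1 cKO post (40.9 ± 2.19 TPM against 13.2 ± 5.97) and 0 as lower. All 5 had positive log2 fold changes, with a median of 1.51, against 0.15 over all genes. Their GC content was 42.0% to 49.6%, and the bins of all genes with median GC content of 42.9% to 48.7% had medians of 0.35 to 0.82. Serpinb9, the inhibitor of granzyme B, named here after its values were seen, was at 304 ± 67.2 TPM in TCF-1 cKO post and 88.9 ± 72.3 in WT post, which did not pass (log2 fold change 1.68 ± 0.59, edgeR adjusted p = 0.107). None of the 5 was called with the offset. Before transplant 0 of the 31 genes tested in these lists were called in either direction.

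Between stages, Serpinb9 and Serpinb6b rose in both genotypes, and Serpinb1a fell in WT. Of the 5 inhibitors and relatives, 2 rose and 1 fell in WT, and 4 rose and 0 fell in TCF-1 cKO. Serpinb1a was at 168 TPM in WT pre and 13.2 in WT post (log2 fold change -2.36 ± 0.52, edgeR adjusted p = 0.0159). In TCF-1 cKO it was not called (0.33 ± 0.34). Serpinb9 went from 4.67 TPM in WT pre to 88.9 in WT post and from 9.95 to 304 in TCF-1 cKO, log2 fold changes of 5.39 ± 0.79 and 6.93 ± 0.50. Ctsw and Cst7, a cystatin that limits cathepsins in cytotoxic cells, also rose in both, as did Vamp8, Rab27a and Sytl3 of the trafficking list, Rab27a being the GTPase that docks granules. Ctsh fell in both (log2 fold changes of -5.83 and -3.17), and its pre-transplant level of 374 and 277 TPM lay in libraries with high B cell and myeloid markers. Ctsl was called as lower in WT only (-2.10 ± 0.62, edgeR adjusted p = 0.0479). Of the 8 maturation and sorting genes 2 rose and 2 fell in WT, and 3 rose and 1 fell in TCF-1 cKO. Gzmm was called as higher in both genotypes (4.25 and 1.50). Its mean TPM in TCF-1 cKO was 9.97 before and 8.64 after transplant. By the edgeR test 4 of 17 trafficking genes rose and 2 fell in WT, where 9.7% of all genes were called as higher and 10.3% as lower. In TCF-1 cKO 7 rose and 1 fell, where the shares were 19.7% and 16.8%. These calls hold on the TMM scale. Mean TPM was lower after transplant for 1 of the 4 in WT (Rab27a, 12.8 against 15.1) and for 5 of the 7 in TCF-1 cKO (Rab27a, at 11.9 against 17.6, Ap3b1, Lamp2, Sytl2 and Rab7).

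**Figure D5:**
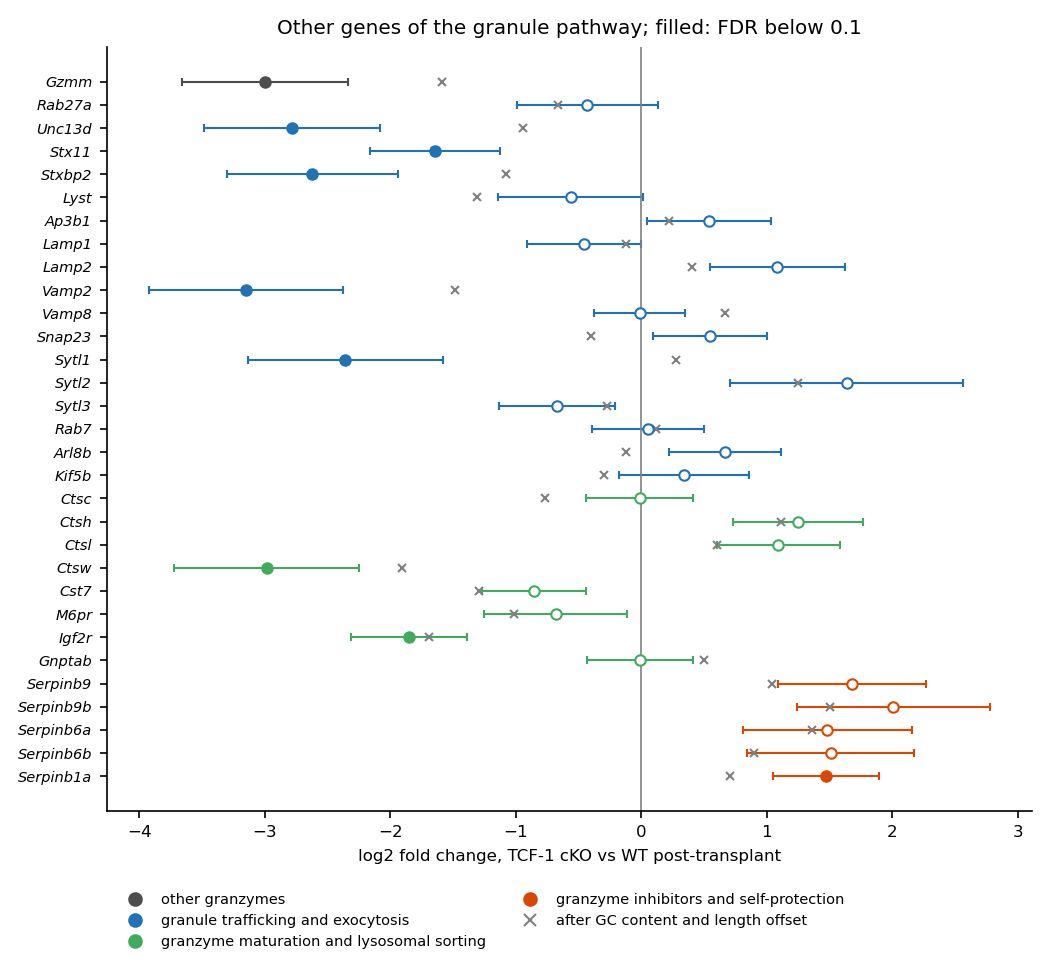
edgeR log2 fold change of TCF-1 cKO against WT post-transplant (x axis, log2 units) for the 31 genes of the granule pathway that were tested, coloured by list, with standard error bars and filled points where the FDR was below 0.1. Grey crosses give the value with the offset. All 5 inhibitors lie to the right of 0, and the called trafficking and sorting genes lie to the left.

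The genes whose pattern over the 12 libraries was most like that of a member were found by the root mean square difference of centred log2 CPM, among 9154 genes. For Gzmb they were Lgals1 (0.92), Tnfrsf9 (1.27) and Hist1h1b (1.35), and the same 3 genes were nearest to Gzmk (1.14, 1.34 and 1.23). For Prf1 they were Prelid1 (0.30), Tuba1c (0.32) and Arf5 (0.33), which have GC contents of 57.6%, 56.2% and 60.1% against 53.9% for Prf1. Prelid1 averaged 232 TPM in WT pre, 183 in TCF-1 cKO pre, 1047 in WT post and 144 in TCF-1 cKO post, the same order of groups as Prf1. These distances are descriptions over 12 libraries that share depth and base composition.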

How the data were processed

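RNA-seq of 12 libraries was used, 3 in each of 4 groups. Per the study's methods, RNA from sorted cells was amplified with SMART-Seq HT, made into libraries with Nextera XT and sequenced on a NovaSeq. The authors deposited estimated counts and TPM per Ensembl transcript from Kallisto 0.46.2. The submitters' processing notes name mm9, while the files hold transcript identifiers and no coordinates, and the transcript release is not given in the sources used here. Of 117497 transcripts, 116374 matched GENCODE M21 (GRCm38) and were summed to 35855 genes, holding 99.5% to 99.7% of the counts, and the other 1123 were left out. Estimated counts were rounded to whole numbers.

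Groups were compared with edgeR 4.0.16 (quasi-likelihood test, TMM factors, Benjamini-Hochberg FDR of 0.1 over all genes tested) in R 4.3.3, with only the groups compared in each fit and all 12 libraries in the interaction, and the code was tested on simulated data. The study used limma at the same FDR. limma 3.58.1 (voom) and DESeq2 1.42.0 were alternatives. For single members an exact permutation test (two-sided) on log2(CPM + 1) was added. Intervals on count ratios are exact and, like the floor of 3 counts (0.0919 to 0.664 CPM per library), cover counting error only. The offset for GC content and length is a loess trend per library. Tables were handled with pandas 2.3.3, tests with SciPy 1.17.1 and sequences with Biopython 1.88.

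All 10 members were named in every comparison. Of each pathway list the counts past the FDR were given for the comparisons of groups, not for the interaction. Up to 3 genes in each direction were named by smallest p, and the 3 genes most like Gzmb, Gzmk and Prf1. The members and lists were chosen with earlier results of these data known. One design note names 3 different mice for the pre-transplant groups. Otherwise nothing says that replicates came from separate animals, and p-values then measure only the spread between these libraries.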

Additional observations from a re-analysis of the deposited data

How the results depend on the processing

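Over 1022 alternatives for single genes, 960 kept direction and side of the threshold, 25 lost and 25 gained a call, and 12 changed sign. Members called before transplant rose from 0 to 1 with limma-voom quality weights and with DESeq2, and ranged from 0 to 1 leaving out 1 library. Post-transplant between genotypes the 4 calls became 8 with quality weights, 2 with the Gzmb cluster summed (which leaves 6 members) and 0 to 6 leaving out 1 library. With library totals they became 5, with Gzme added (edgeR adjusted p = 0.0924), against 13.9% of all genes. In TCF-1 cKO between stages the cluster sum gave 6 of 6. The interaction gave 1 with no filter, 3 with quality weights, 3 with DESeq2 and 0 to 3 leaving out 1 library. Per Cd8a and Cd8b1 TPM, a scaling added after the data were seen like the plain-mean offset, 5 members did not overlap before transplant, against 2. Post-transplant between genotypes 8 did not overlap on that scale, against 6. Cd8a and Cd8b1 were themselves lower in TCF-1 cKO pre, and the share of all genes on this scale was not computed.

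Sign changes before transplant were Gzmb at -0.051 without WT pre replicate 2 (up to 1.36 leaving out another), Prf1 at 0.084, Srgn at 0.13 and Nkg7 at 0.065 with library totals, and Nkg7 at 0.038 with thinned libraries. Post-transplant the offset gave Gzmk -0.26 and Srgn -0.41. In the interaction Gzmb was -0.24 without WT pre replicate 1 (range to 1.49) and Gzme -1.64 without WT pre replicate 3 (range to 4.70). WT pre replicate 3 held 47 of the 48 Gzme counts in WT pre. Gzmf was at 0.74 with a standard error of 924 without TCF-1 cKO pre replicate 3 (range from -5.50). That library held all 13 pre-transplant counts of Gzmf. Without it both pre-transplant groups were at 0, so the Gzmf interaction could not be estimated. The cause of the other sign changes was not tested.

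Correlations of same-numbered libraries were -0.0668 to 0.0564 before transplant, 0.0555 to 0.13 post-transplant, 0.0186 to 0.233 between stages in WT and -0.167 to -0.0239 in TCF-1 cKO. Post-transplant all of them were above those of different-numbered libraries (-0.0984 to 0.00976). In the other comparisons same-numbered and different-numbered values overlapped. Whether the numbers pair the post-transplant libraries is thus not settled. With the replicate block, members called were 0, 4, 7, 10 and 0 (pre-transplant, post-transplant, WT stages, TCF-1 cKO stages, interaction). The replicate block with the offset left 0 post-transplant, with Gzmk at -0.24 and Srgn at -0.39.

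Genes called over all post-transplant were 2868, against 562 with the offset, 829 with the plain-mean offset, 4524 with DESeq2, 7591 with quality weights and 2 with block and offset. Before transplant they were 7, against 1451 with DESeq2, 7566 with quality weights and 619 with no filter. Low depth in TCF-1 cKO pre limits Gzmc to Gzmf there.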
